A study of Mus musculus with 24 samples.

Results

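The genes described here are the subunits and dedicated cofactors of the proteasome, the protease that degrades ubiquitin-tagged proteins, in cultured mouse liver endothelial cells with P16Ink4a silenced or overexpressed. The members were the protein-coding genes of the count table whose symbol is Psm, a letter from a to g and a number, which gave 48 of 56748 genes (21970 of them protein-coding). The interferon-inducible members Psmb8, Psmb9, Psmb10, Psme1 and Psme2 were compared with the other 43. The rule uses symbols and not measured values.

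Cd31+ cells (the general endothelial population) and Cd146+ cells (liver sinusoidal endothelial cells) came from digested livers of 3-month-old female C57BL/6 mice, isolated with magnetic beads and grown in culture. Both populations were transduced with lentivirus, and polyadenylated RNA was sequenced 1 week later. Silencing used a P16 small hairpin in pLKO.1 (P16 shRNA) against a non-coding hairpin in that vector (nc shRNA). Overexpression used P16 as a GFP fusion in pLenti-C-mGFP-P2A-Puro (P16) against the vector with no insert (empty vector). Each of the 8 groups had 3 libraries, and all 24 came from transduced, cultured cells with no untransduced control. Whether libraries of a group came from separate mice or cultures is not given, so p-values measure only the spread between these libraries, which may be technical.

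The 26S proteasome consists of a 20S barrel, made of alpha rings around beta rings that hold the proteolytic sites, and 19S caps that recognise, unfold and feed in ubiquitinated proteins. Interferons induce Psmb8, Psmb9 and Psmb10, which take the places of the catalytic subunits Psmb5, Psmb6 and Psmb7 in new barrels to form the immunoproteasome. They also induce Psme1 and Psme2, the PA28 activator, and these changes favour peptides for class I antigen presentation.

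The promoter sequences of the inducible members and of Psmb5 are shown because the inducible genes are known as targets of interferon-activated factors. The sequences come from the RefSeq table for GRCm38.p6, which held 250 bases before to 50 bases after the start of 40 of the 48 members, and capitals mark a motif match. The RefSeq starts of Psmb8, Psmb9 and Psme1 lay 405, 434 and 134 bases downstream of the principal GENCODE starts. The sequences searched for Psmb8 and Psmb9 therefore lie wholly downstream of their GENCODE starts, and so do the matches shown for them. The match in Psme1 is downstream of both of its starts. The windows shown avoid annotated exons of the gene or span 30 bases around a match.
Psmb8, chr17:34198088-34198117, plus strand, match to the GAS element: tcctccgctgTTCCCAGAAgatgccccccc
Psmb9, chr17:34187327-34187356, minus strand, match to the CCAAT box: caccgcgcgcagccgctgATTGGaaagccg
Psme1, chr14:55578496-55578525, plus strand, match to the ISRE core: gctgtgctTTCGCTTTCccttcccgctgcc
Psmb10, chr8:105938445-105938564, minus strand, no match: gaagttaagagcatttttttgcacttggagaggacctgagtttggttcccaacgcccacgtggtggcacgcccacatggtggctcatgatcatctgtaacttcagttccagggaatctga
Psme2, chr14:55591114-55591233, minus strand, no match: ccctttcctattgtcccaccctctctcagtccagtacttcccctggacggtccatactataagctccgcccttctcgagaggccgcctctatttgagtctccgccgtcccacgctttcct
Psmb5, chr14:54618023-54618142, minus strand, match to the ARE core: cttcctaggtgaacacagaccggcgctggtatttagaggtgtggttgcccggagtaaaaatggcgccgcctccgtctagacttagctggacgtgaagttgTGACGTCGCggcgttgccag

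All motifs were searched on both strands of the 300-base windows. The interferon-stimulated response element core, GAAANNGAA (or TTCNNTTTC), was in the windows of 1 of the 5 inducible members (Psme1) and 6 of 35 others, beside 9.76% of the promoters of all 27025 genes. The GAS element TTCNNNGAA was in 1 inducible member (Psmb8) and 2 others, beside 9.55% of all genes. The antioxidant response element core TGACNNNGC was in 0 inducible members and 6 others, among them Psmb5 and Psmb6, beside 13.99% of all genes. The ETS motif CCGGAAG was in 0 inducible members and in 14 of 35 others (40.0%), beside 9.93% of all genes. The CCAAT box was in 1 inducible member (Psmb9) and 13 others (37.1%), beside 41.1% of all genes. A match is a run of letters and not a shown binding site, and a missing one says only that these letters are not in the window.

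Sequencing depth was 15409767 to 26470392 counted reads per library, so that 3 reads, taken here as the detection floor, were 0.113 to 0.195 CPM (counts scaled to library size). Cdkn2a, the gene of P16Ink4a, changed by -3.08 on the log2 scale with P16 shRNA in Cd31+ cells and by -3.21 in Cd146+ cells, and by 2.02 and 2.44 with P16. The count covers the whole gene and not P16Ink4a alone. RNA of mesenchymal marker genes was abundant, and which cells made it was not tested. Col1a1, a fibrillar collagen, had 460 to 19400 CPM and Pecam1 (Cd31) 4.05 to 281 CPM over the 24 libraries. Stab2, a sinusoidal gene, was at 0.07 to 0.96 CPM in all of them. Of the other sinusoidal markers listed, Stab1 was at 3.63 to 430 CPM and Lyve1 at 0.131 to 7.53 CPM. Fcgr2b was at 0 to 6.79 CPM and Clec4g at 0 to 0.225 CPM. The 3 Cd146+ libraries numbered 3 (nc shRNA, P16 shRNA and P16) stood apart in part of the endothelial markers. They had Pecam1 at 10.1, 4.05 and 6.83 CPM and Cdh5, an endothelial cadherin, at 6.34, 4.01 and 3.70 CPM, where all other libraries had at least 61.5 and 46.8 CPM. In all 3 of them 7 of 15 endothelial markers (Pecam1, Cdh5, Tek, Mcam, Emcn, Erg and Vwf) lay below each of the other 21 libraries. Eng, an endothelial coreceptor, was at 285 to 293 CPM in them, within the range of the others (62.5 to 703 CPM). The 15 markers summed to 307 to 344 CPM, where the lowest of the others had 300.4 CPM. The main results in Cd146+ cells are therefore given with and without them.

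Among the 48 genes, the constitutive subunits had the highest levels per length, and Psmb8 and Psmb9 had the lowest levels in the control groups after Psma8 and Psmb11. In RPKM (reads scaled to gene length and library size), Psmb5, which carries the chymotrypsin-like site of the constitutive barrel, had a mean of 87.4 ± 16.5 (SD, n = 3) in Cd31+ nc shRNA libraries. Psme1 and Psme2 followed at 16.6 and 11.2 RPKM and Psmb10 at 6.85 RPKM, while Psmb8 and Psmb9 had means of 0.383 and 0.303 RPKM in that group. Psma8, a testis form of an alpha subunit, and Psmb11, the thymus beta subunit, had a mean under 1 CPM and were left out of nearly all tests by the filter on low counts, so that 46 members (5 inducible and 41 others) were tested in the main comparisons.

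**Figure D1:**
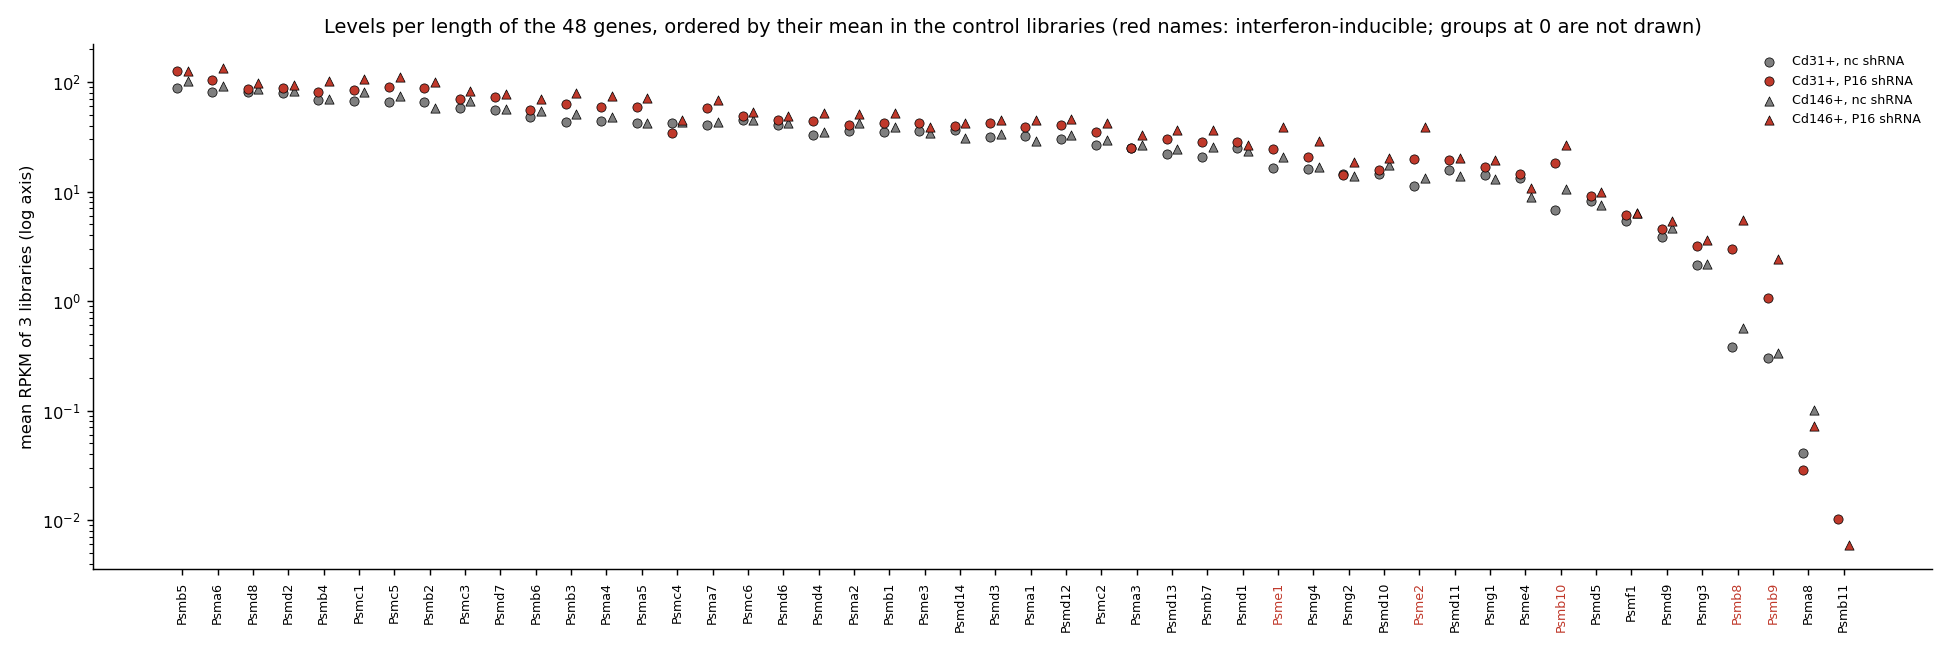
Mean RPKM (log axis) of the 48 proteasome genes in the nc shRNA and P16 shRNA groups of both populations (3 libraries each), ordered by the mean over the control libraries. Psmb8 and Psmb9 lie below all other members except Psma8 and Psmb11 in controls, and their P16 shRNA symbols stand further above the grey ones than those of most members.

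The first question was whether silencing of P16Ink4a changed the inducible members in Cd31+ cells. All 5 had a positive fitted change with P16 shRNA. Its median was 1.41 on the log2 scale, beside 0.28 for the 41 others and 0.00 for all 14358 genes tested. Psmb8 and Psmb10 passed an unadjusted p of 0.05, the threshold stated by the study and used for a call below, and 0 of the 5 passed after Benjamini-Hochberg adjustment in the 6-library edgeR test. Of all genes, 9.51% were called higher and 10.3% lower.

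Psmb8, the inducible counterpart of Psmb5, had 0.408, 0.558 and 2.92 CPM in nc shRNA libraries 1 to 3 and 2.95, 3.60 and 23.7 CPM in P16 shRNA libraries 1 to 3. The groups did not overlap, but nc shRNA library 3 almost reached the lowest silenced library, and silenced library 3 stood well above its group. These levels rest on 6, 12 and 52 reads in controls and 55, 64 and 511 in silenced libraries. The fitted change was 7.81-fold (log2 2.96, SE 1.15, edgeR adjusted p = 0.231). The call was lost without nc shRNA library 1 (log2 2.55), nc shRNA library 2 (2.57) or P16 shRNA library 3 (1.33), and with all genes of at least 1 count kept (2.96).

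Psmb10, the inducible counterpart of Psmb7, had 7.27, 11.9 and 15.9 CPM in controls and 23.4, 19.7 and 49.6 CPM after silencing. Every silenced library lay above every control, and library 3 was again the highest of its group. The fitted change was 2.66-fold (log2 1.41, SE 0.44, edgeR adjusted p = 0.164). The call was lost without nc shRNA library 1 (log2 1.15) or library 2 (1.41).

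Psmb9, the inducible counterpart of Psmb6, had 0.340, 0.744 and 2.25 CPM in controls and 1.77, 1.97 and 7.93 CPM after silencing. Control library 3 lay above silenced libraries 1 and 2, so the groups overlapped, and the log2 fold change of 1.81 (SE 0.86, edgeR adjusted p = 0.307) was not called. Of the PA28 subunits, Psme1 had 34.1, 32.7 and 42.9 CPM in controls and 46.7, 40.7 and 73.6 CPM after silencing (log2 0.56, SE 0.24, edgeR adjusted p = 0.258). Psme2 had 12.6, 19.3 and 27.2 CPM against 22.5, 39.0 and 43.5 CPM (log2 0.83, SE 0.35, edgeR adjusted p = 0.256). For both genes control library 3 lay above the lowest silenced library. Values of Psme2 are uncertain, since reads may be shared with its near copy Psme2b, which had a log2 fold change of 0.64 in this comparison and was called.

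**Figure D2:**
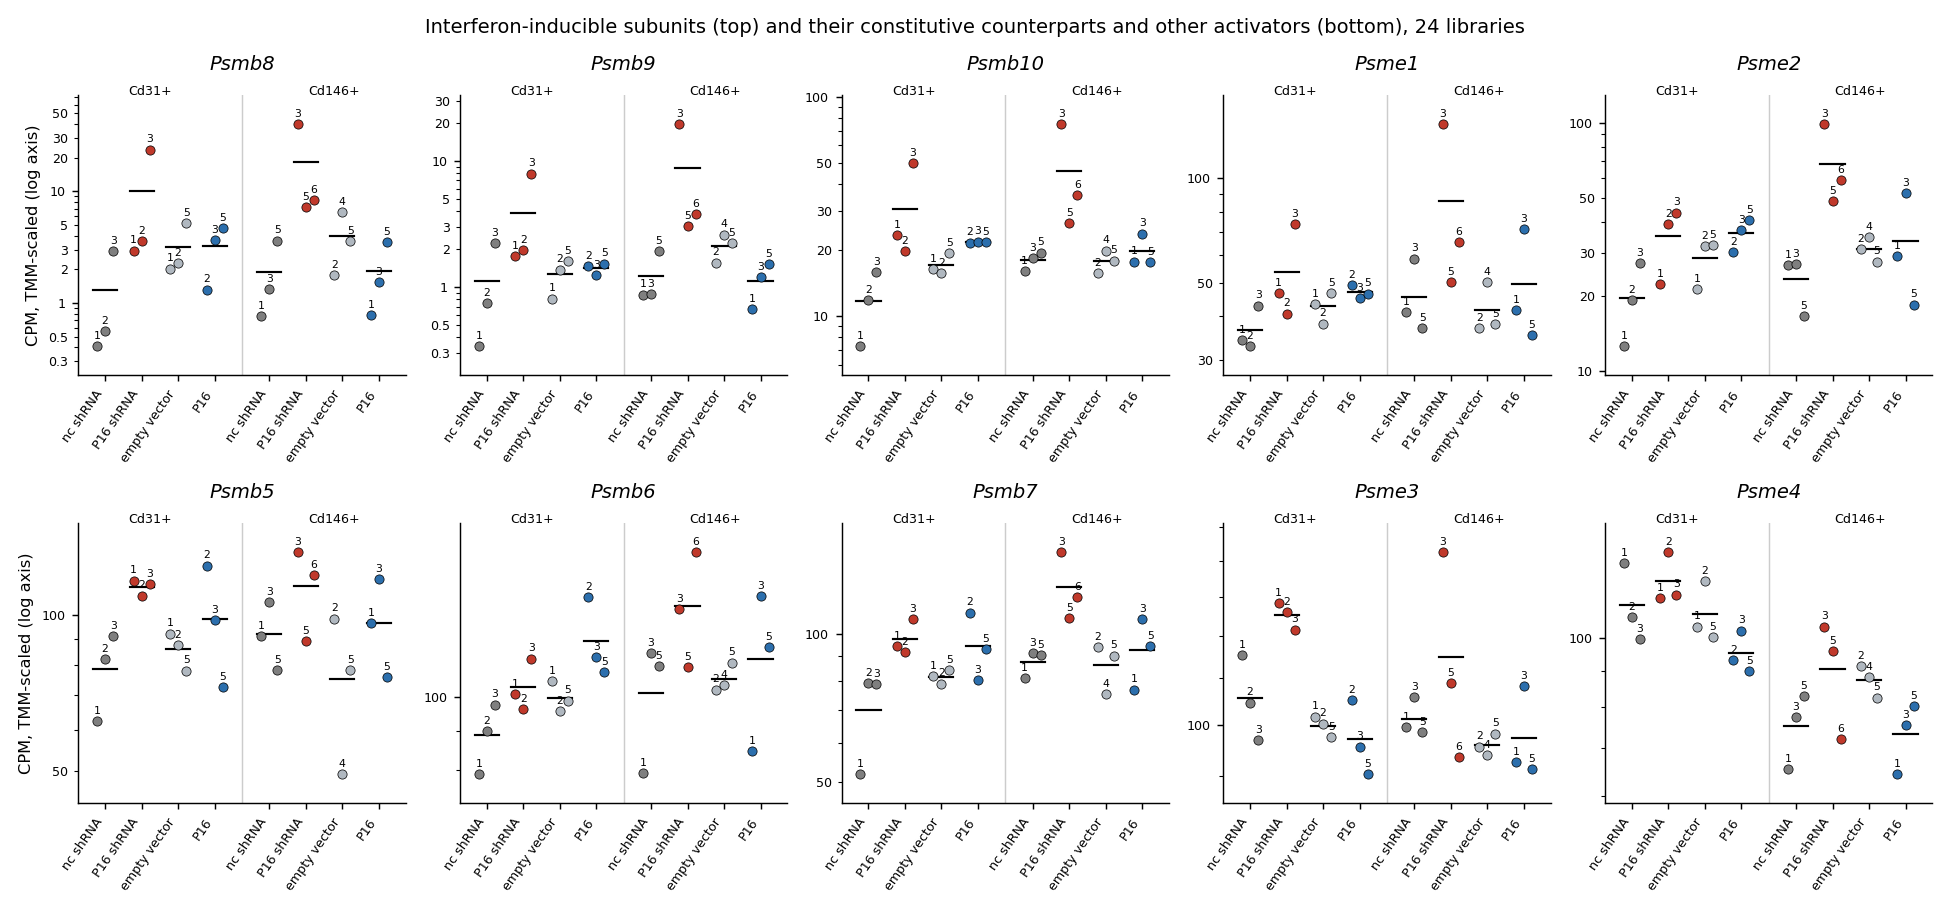
CPM (log axis, each panel with its own range) of the inducible members in the top row and of Psmb5, Psmb6, Psmb7, Psme3 and Psme4 in the bottom row, for the 4 constructs in both populations. Each point is a library with its replicate number and each line the mean of 3 libraries; in the top row the highest point of each panel is a P16 shRNA library numbered 3.

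In Cd146+ cells all 5 inducible members were also higher with P16 shRNA, and 4 were called. Their median log2 fold change was 1.55, beside 0.44 for the others and 0.03 for all 15124 genes tested, of which 5.44% were called higher and 6.18% lower. No gene of the table passed the adjusted threshold in this edgeR test, so 0 members did.

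Psmb8 had 0.764, 1.33 and 3.63 CPM in nc shRNA libraries 1, 3 and 5 and 39.9, 7.19 and 8.35 CPM in P16 shRNA libraries 3, 5 and 6. The groups did not overlap, and the highest value of all 24 libraries came from P16 shRNA library 3, 1 of the libraries low in Pecam1, Cdh5 and Mcam. The fitted change was 9.64-fold (log2 3.27, SE 0.91, edgeR adjusted p = 0.384). With the replicate number as a block in the 2 groups alone, neither Psmb8 nor Psmb9 was called. Only the libraries numbered 3 and 5 inform that fit, so a missing call there says little.

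Psmb9 had 0.873, 0.876 and 1.92 CPM in controls and 19.5, 3.04 and 3.81 CPM after silencing (log2 2.83, SE 0.84, edgeR adjusted p = 0.384). Psmb10 had 15.98, 18.4 and 19.5 CPM in controls and 74.8, 26.6 and 35.6 CPM after silencing (log2 1.34, SE 0.39, edgeR adjusted p = 0.384). Both were called without overlap between groups, and silenced library 3 was the highest each time.

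Psme2 had 26.7, 27.0 and 16.7 CPM in controls and 98.8, 48.3 and 58.8 CPM after silencing, a 2.92-fold change (log2 1.55, SE 0.33, edgeR adjusted p = 0.382) with no overlap. Its near copy Psme2b had a log2 fold change of 0.18 here. Psme1 had 41.0, 58.6 and 36.9 CPM in controls and 143, 50.3 and 65.5 CPM after silencing (log2 0.92, SE 0.42, edgeR adjusted p = 0.443). Control library 3 lay above silenced library 5, and Psme1 was not called.

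Without the number 3 libraries, which leaves 2 against 2, all 5 inducible members still had a positive fitted change. Their median log2 fold change was then 1.29, and Psmb8 (1.82), Psmb10 (0.81) and Psme2 (1.30) were called while Psmb9 (1.29) and Psme1 (0.57) were not. Of the 41 others, 5 were called higher, with a median of 0.40. In that fit 3.71% of all genes were called higher and 5.34% lower, and the edgeR adjusted p was 0.529 for each of the 5 inducible members.

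Libraries with the same replicate number deviated together from their group means, so differences were also taken within same-numbered pairs. In Cd31+ cells the difference for Psmb8 was 2.75, 2.64 and 3.01 on the log2 scale in pairs 1, 2 and 3, much closer to each other than the levels themselves. Psmb9 differed by 2.26, 1.38 and 1.81 and Psmb10 by 1.68, 0.74 and 1.64. The 41 others had medians of 0.31, 0.25 and 0.34 in the same pairs. All 5 inducible members and 33 of 41 others were higher in every pair, beside 27.3% of all genes.

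In Cd146+ cells there were pairs 3 and 5 alone, and they differed in size. Psmb8 was higher by 4.88 in pair 3 and by 0.98 in pair 5, and Psmb9 by 4.44 and 0.65. Psme2 was nearer in both, at 1.87 and 1.53. The others had medians of 0.49 and 0.21. All 5 inducible members and 36 of 41 others were higher in both pairs, beside 34.6% of all genes. Both libraries of pair 3 are low in Pecam1, Cdh5 and Mcam, and those of pair 5 are not.

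**Figure D3:**
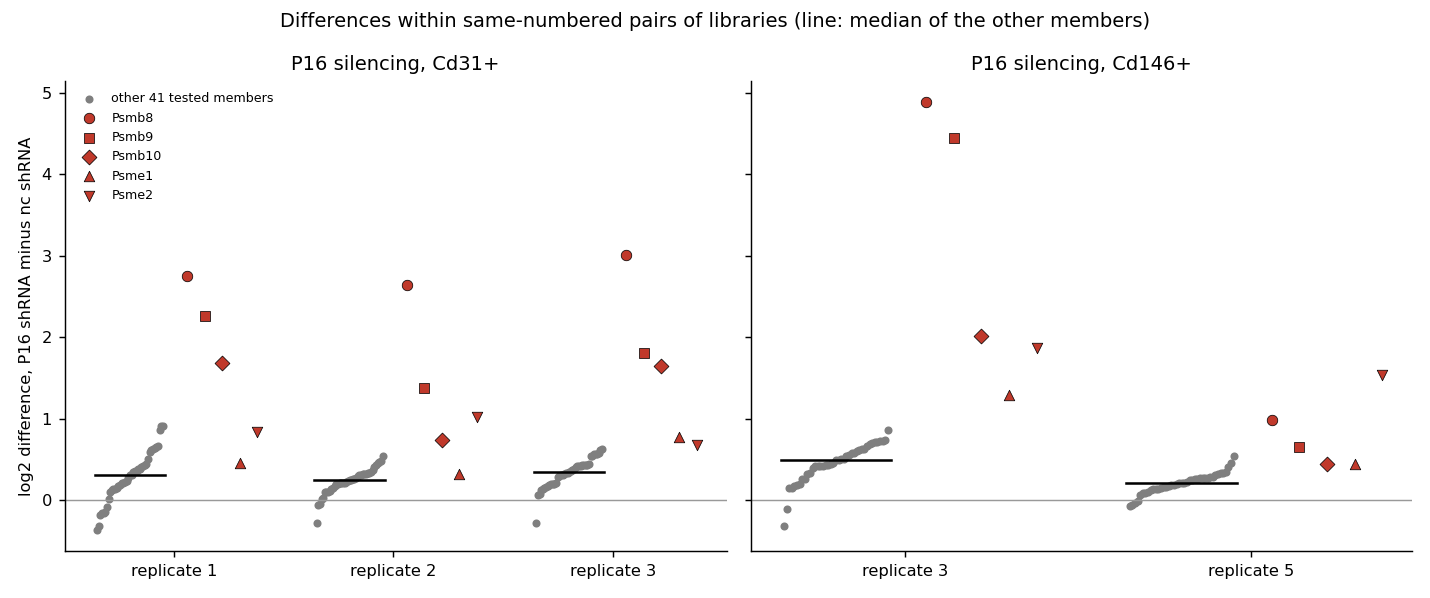
Log2 difference between the P16 shRNA and the nc shRNA library with the same replicate number, for the 5 inducible members (red) and the 41 other tested members (grey, line at their median). Psmb8 differed by 2.64 to 3.01 in the Cd31+ pairs, whereas in Cd146+ cells it differed by 4.88 in pair 3 and 0.98 in pair 5.

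With the replicate number as a block and all 12 libraries of a population in 1 edgeR fit, all 5 inducible members passed the adjusted threshold in Cd31+ cells. Their adjusted p-values were 0.000173 for Psmb8, 0.000888 for Psme2, 0.00186 for Psmb10, 0.00904 for Psmb9 and 0.0308 for Psme1. In this fit 7.95% of all genes passed as higher and 8.81% as lower, and 16 of the 41 others passed as higher and 0 as lower. Without P16 shRNA library 3, Psmb8, Psmb10 and Psme2 still passed (adjusted p = 0.00407, 0.0159 and 0.00719). In that fit 0 of the others passed, beside 3.49% of all genes as higher. Without P16 shRNA library 1, 4 inducible members passed and 0 of the others, beside 3.59% of all genes as higher, and Psme1 was at 0.0686. Without P16 shRNA library 2, all 5 passed, with 13 of the others as higher and 0 as lower, beside 5.85% of all genes as higher.

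In Cd146+ cells no other library shares the number of P16 shRNA library 6, so the block absorbs it. The silencing effect there rests on P16 shRNA libraries 3 and 5, and library 3 is low in Pecam1, Cdh5 and Mcam. The same block left Psme2 (adjusted p = 0.00393) and Psme1 (0.0203) past the threshold, while Psmb10 (0.0718), Psmb9 (0.126) and Psmb8 (0.166) were not. Of the others 15 passed as higher, beside 3.53% of all genes, and 4.8% of all genes passed as lower. Without P16 shRNA library 3 the effect rests on silenced library 5 alone, so only effect sizes are given. Psmb8 was then at a smaller log2 fold change of 1.03 and Psmb10 at 0.58. The medians were 0.78 for the inducible members and 0.26 for the others. Without P16 shRNA library 5 the effect rests on silenced library 3 alone. Psmb8 was then at 4.81, and the medians were 1.90 and 0.43. Without P16 shRNA library 6, Psme1 and Psme2 passed, and 15 of the others as higher, beside 3.23% of all genes. Since the block already absorbs that library, leaving it out could hardly move the effects and is no check on them (Psmb8 3.11 instead of 3.14).

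A smaller shift in the same direction was measured for most constitutive members. In Cd31+ cells 39 of the 41 others had a positive fitted change, from -0.29 to 0.60 on the log2 scale, and 20 were called higher and 1 lower. In 26 of them all 3 silenced libraries lay above all 3 controls, beside 13.8% of all genes. None passed the adjusted threshold in the 6-library edgeR test, where 186 of all genes did. Without P16 shRNA library 3, 14 of the 46 tested members were called instead of 23, and DESeq2 called 24 on all 6 libraries. Shares of all genes are not given for the fit without that library or for DESeq2.

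Of the alpha subunits, which form the gate of the barrel, 4 of 7 tested were called higher, and the median was 0.36 on the log2 scale. Psma7 had 127, 121 and 124 CPM in Cd31+ controls and 194, 163 and 181 CPM after silencing. The control libraries lay close together and all silenced ones above them (log2 0.54, SE 0.10, edgeR adjusted p = 0.0613). Psma5, whose values may hold reads of its near copy Psma5-ps, was at 0.49 (adjusted p = 0.0704), and Psma3 at 0.01 was not called.

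Of the constitutive beta subunits 5 of 7 were called higher, with a median of 0.43. Psmb3 had 87.3, 99.9 and 110 CPM in controls and 139, 140 and 159 CPM after silencing, with no overlap (log2 0.56, SE 0.12, edgeR adjusted p = 0.0787). Among the catalytic subunits, Psmb5 had 62.3, 82.3 and 91.3 CPM against 117, 109 and 115 CPM (log2 0.54, edgeR adjusted p = 0.123) and Psmb7 a log2 fold change of 0.48, and both were called. Psmb6 at 0.22 was not, and its groups overlapped.

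Of the 6 ATPases of the 19S base, which unfold the substrate, Psmc2, Psmc3 and Psmc5 were called higher (log2 0.40, 0.28 and 0.46) and Psmc4 lower. Psmc4 had 96.4, 87.4 and 87.6 CPM in controls and 77.4, 71.6 and 72.1 CPM after silencing, the reverse of the other members, with no overlap (log2 -0.29, SE 0.09, edgeR adjusted p = 0.163). It was also lower in every Cd31+ pair. Of the 14 non-ATPase subunits, 6 were called higher, with a median of 0.23, among them Psmd13 (0.47), Psmd4, a ubiquitin receptor (0.42), and Psmd7 (0.40). Psmd14, the deubiquitinase of the lid, was at 0.13 and not called.

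Of the 4 assembly chaperones of the barrel, Psmg3 was called higher (0.60). Psme3, the nuclear activator, was called (0.25), whereas Psme4 (0.12) and the inhibitor Psmf1 (0.19) were not. The CPM of all 48 members summed to 4261 ± 36.3 (SD, n = 3) with nc shRNA and 5205 ± 255 with P16 shRNA. The 5 inducible members made up 70.3 ± 18.8 of the former and 134 ± 56.3 of the latter. In bulk RNA, fewer cells of a kind and less RNA per cell cannot be told apart.

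**Figure D4:**
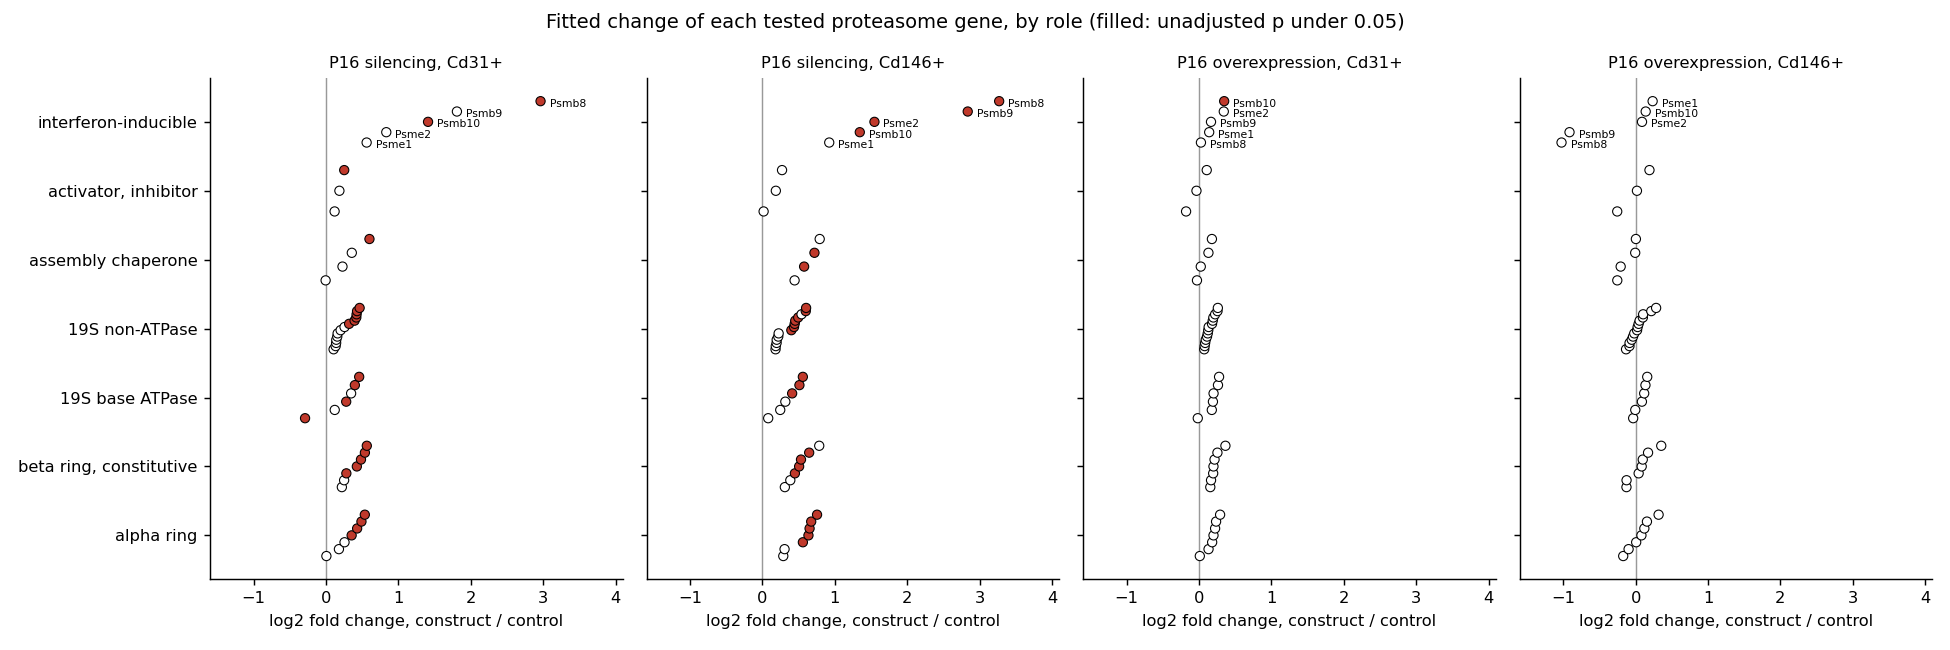
Fitted log2 fold change of each tested proteasome gene over its control construct, by role, in the 4 comparisons; filled symbols passed an unadjusted p of 0.05. With P16 silencing the inducible members reach 2.96 and 3.27 while the other roles stay between -0.29 and 0.79, and with P16 overexpression 1 symbol is filled.

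In Cd146+ cells all 41 others had a positive change, from 0.02 to 0.79, and 21 were called higher and 0 lower. In 28 of them the silenced libraries lay above all controls, beside 10.5% of all genes. By role, 5 of 7 alpha, 4 of 7 constitutive beta, 3 of 6 ATPase and 7 of 14 non-ATPase subunits were called, with median log2 fold changes of 0.63, 0.51, 0.36 and 0.42. Of the chaperones, Psmg1 (0.58) and Psmg3 (0.72) were called, and 0 of Psme3, Psme4 and Psmf1.

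Psma1 had 76.8, 79.4 and 98.4 CPM in Cd146+ controls and 131, 124 and 144 CPM after silencing (log2 0.65, SE 0.17, edgeR adjusted p = 0.382), without overlap. Psma5 was higher by 0.75 and Psmb3 by 0.65, both with an adjusted p of 0.382. Psmb5 (0.31) was not called here, and control library 3, at 106 CPM, lay above silenced library 5, at 89.0 CPM. Psmc4, lower in Cd31+ cells, was at 0.08 in Cd146+ cells, and the difference between the populations was not called. The number of members called was 25 of 46 (19 with DESeq2), where edgeR called 5.44% of all genes higher and 6.18% lower. It fell to 8 without the number 3 libraries, beside 3.71% and 5.34%. It was 11 without nc shRNA library 1, 13 without nc shRNA library 3, 15 without P16 shRNA library 3 and 16 without P16 shRNA library 6. Shares of all genes are not given for DESeq2 and the fits with 1 library left out, so those counts have no background beside them.

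The summed CPM of all members was 4475 ± 228 (SD, n = 3) with nc shRNA and 6032 ± 613 with P16 shRNA in Cd146+ cells, and the inducible members summed to 90.1 ± 14.4 and 228 ± 130. Marker RNA was measured beside these results. Of 13 tested endothelial markers, Mcam (the gene of Cd146) was lower after silencing in Cd31+ cells (log2 -1.23, edgeR adjusted p = 0.127) and 0 were called in Cd146+ cells. Col3a1, 1 of 9 tested mesenchymal markers, was called higher in both, by 0.89 and 0.66. Of the macrophage markers 0 of 7 and 0 of 9 were called, and their summed level was 63.8 to 164 CPM in the means of the 8 groups. The 10 lymphoid markers summed to 1.49 to 3.36 CPM. The part of these markers in the results on the proteasome genes was not tested.

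To set each inducible subunit against the constitutive one it replaces, the ratio of their reads per length was taken within each library. Such a ratio is independent of library size. With 3 libraries against 3 the exact permutation test cannot go below p = 0.1, and 20 ratios were tested, so no adjusted value could pass.

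Psmb8 was at 0.188%, 0.188% and 0.859% of Psmb5 in Cd31+ controls and at 0.677%, 0.883% and 5.49% after silencing, with control library 3 inside the silenced range (4.76-fold, two-sided exact permutation p = 0.2, adjusted 0.462). In Cd146+ cells it was at 0.231%, 0.339% and 1.24% in controls and at 7.999%, 2.15% and 1.86% after silencing, without overlap (6.91-fold, exact permutation p = 0.1, adjusted 0.333). The difference in Cd146+ cells was 3.74-fold without the number 3 libraries (2 against 2, not tested). Even the highest library held far less Psmb8 than Psmb5 RNA.

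Psmb10 was at 28.3% to 40.4% of Psmb7 in Cd31+ controls and 43.1% to 93.1% after silencing, and at 39.5% to 43.3% and 49.5% to 102% in Cd146+ cells. The groups were apart in both populations (1.80-fold and 1.64-fold, exact permutation p = 0.1, adjusted 0.333 in each). The percentages depend on the gene length used, and with principal transcripts the mean for Cd31+ controls was 14.3% instead of 32.5%. In that group Psmb8 was then at 0.648% instead of 0.312% of Psmb5, and Psme1 at 82.6% instead of 46.0% of Psme3. Psmb9 was 3.03-fold higher relative to Psmb6 in Cd31+ cells with overlap (exact permutation p = 0.3) and 4.03-fold higher in Cd146+ cells without (p = 0.1, exact). Against Psme3, the activator subunit that is not induced by interferon, Psme2 was 1.51-fold and 2.55-fold higher (exact permutation p = 0.3 and 0.1) and Psme1 1.203-fold and 1.56-fold (p = 0.5 and 0.2, exact). Leaving out the number 3 libraries, the Cd146+ differences were 1.85-fold for Psmb9, 1.32-fold for Psmb10, 2.47-fold for Psme2 and 1.45-fold for Psme1 (2 against 2, not tested).

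**Figure D5:**
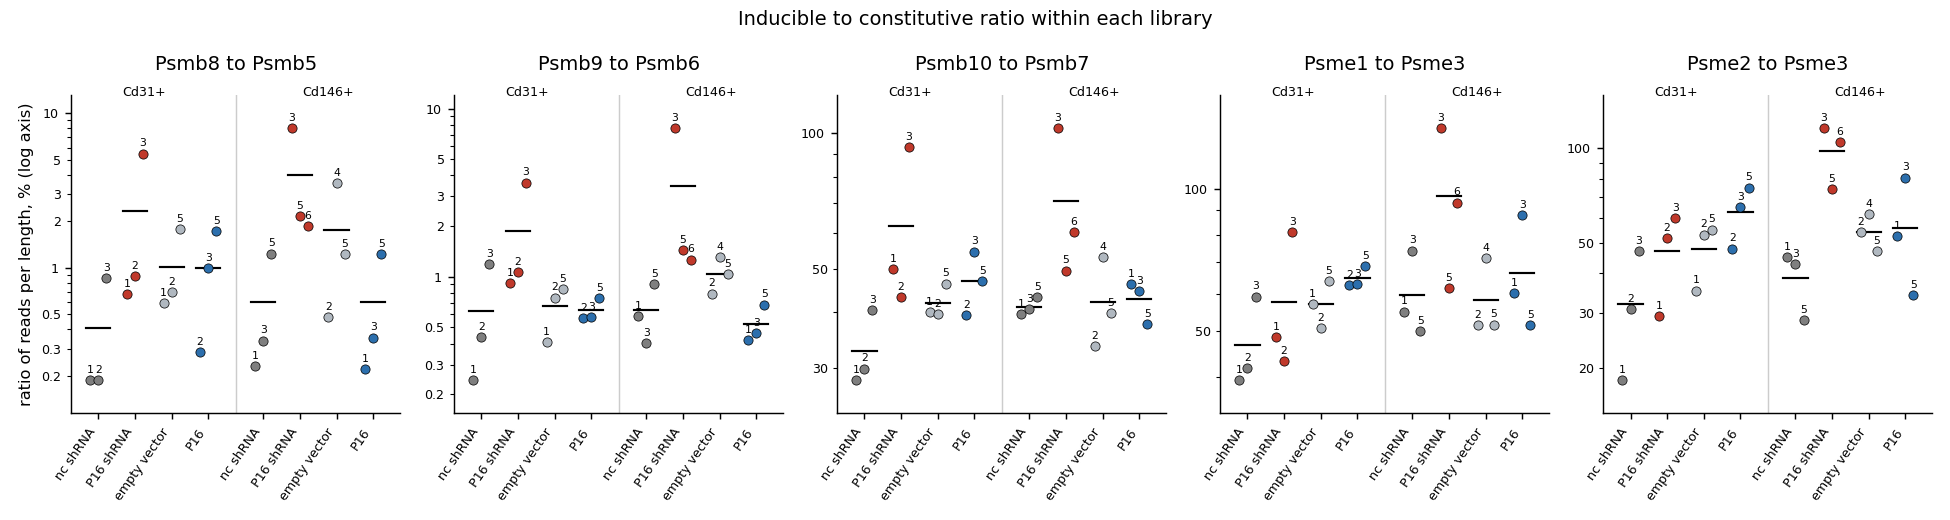
Reads per length of each inducible gene as a percentage of its constitutive counterpart (or of Psme3) within each library, on log axes, for the 4 constructs in both populations. Points carry the replicate number and lines show group means; Psmb8 reaches 5.49% and 7.999% of Psmb5 in the P16 shRNA libraries numbered 3, and Psmb10 reaches 102% of Psmb7.

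The second question was whether overexpression of P16 moved these genes the other way. In Cd31+ cells 1 of 46 members, Psmb10, was called, and it was higher and not lower (log2 0.35, SE 0.14, edgeR adjusted p = 0.947). Psmb10 had 16.3, 15.6 and 19.4 CPM with empty vector and 21.6, 21.8 and 21.7 CPM with P16, without overlap. The median log2 fold change was 0.17 for the inducible members and 0.18 for the others, and 1.45% of all genes were called higher and 2.29% lower. With the replicate block over 12 libraries, 5 members were called without adjustment, beside 11.4% of all genes. These were Psmb8 (-0.82, adjusted p = 0.396) and Psma7, Psmb3, Psmd13 and Psmd9 (0.24 to 0.30), and 0 passed after adjustment.

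In Cd146+ cells 0 of 46 members were called with overexpression by edgeR or DESeq2, with medians of 0.09 for the inducible members and 0.03 for the others, beside 1.55% of all genes called higher and 1.99% lower. Psmb9 had 1.57, 2.61 and 2.23 CPM with empty vector and 0.669, 1.195 and 1.53 CPM with P16. All P16 libraries lay below the controls, but the difference did not pass (log2 -0.91, SE 0.45, edgeR adjusted p = 0.986). Psmb8 had 1.77, 6.55 and 3.58 CPM against 0.78, 1.54 and 3.49 CPM, with overlap (log2 -1.02, SE 0.72, adjusted p = 0.986). Without P16 library 3, the median of the inducible members was -0.36, Psmb8 was at -0.87 and Psmb9 at -0.94, and 0 members were called. Relative to Psmb6, Psmb9 was 0.498-fold with P16 (exact permutation p = 0.1, adjusted 0.333), and 0.524-fold without P16 library 3.

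The 2 control constructs were also compared with each other. Empty vector against nc shRNA gave 0 calls among 46 members in Cd31+ cells, beside 3.16% of all genes, and 0 in Cd146+ cells, beside 3.99% (1.19% without the number 3 library). The point estimates for Psmb8 were 1.29 (SE 0.81) and 1.05 (SE 0.75) on the log2 scale, and neither was called. With the replicate block over 12 libraries, an alternative added after seeing the data, 3 members were called in Cd31+ cells, beside 10.4% of all genes. All were inducible: Psmb8 was higher with empty vector by 1.77 (SE 0.37, edgeR adjusted p = 0.107), Psme2 by 0.59 (adjusted p = 0.126) and Psmb10 by 0.72 (adjusted p = 0.313). In Cd146+ cells the block called Psme2 alone (0.84, edgeR adjusted p = 1), beside 2.04% of all genes, and 0 members passed after adjustment in either population.

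Under control constructs, Cd146+ cells had a log2 difference of 0.34 (median) from Cd31+ cells for the inducible members, and 0 of the 5 were called. Of the others, Psmc3 (0.16), Psmd9 (0.23) and Psmb3 (0.21) were called higher and Psme4 lower (-0.44, SE 0.10, edgeR adjusted p = 0.136), beside 17.5% of all genes called. Psme4, a large nuclear activator, had 99.7 to 128 CPM in Cd31+ nc shRNA libraries and 65.5 to 82.9 CPM in the Cd146+ ones. Without the number 3 library, Psmb3, Psmd9 and Psme4 were still called, beside 17.4% of all genes.

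The difference between populations in the effect of silencing was called for 1 member, Psma1, beside 1.2% of all genes. Its effect was larger in Cd146+ cells by 0.40 on the log2 scale (SE 0.19, edgeR adjusted p = 1.0). Without the number 3 libraries Psmc4 was called instead, beside 2.39% of all genes. For the inducible members the interaction ranged from -0.06 to 1.04 and none was called. Without the number 3 libraries the differences turned to the other direction for Psmb8 (0.32 to -1.14) and Psmb9 (1.04 to -0.51), Psmb10 was at -0.60, the median of the 5 was -0.51, and again none was called. The effect of overexpression differed between populations for 0 tested members, beside 3.82% of all genes, and for 0 without the number 3 libraries, beside 3.22%.

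The other genes of this pathway are given from lists of interferon regulators, class I presentation genes and proteasome cofactors. Of the interferon regulators, Nlrc5, the transactivator of class I genes, was called higher with silencing in Cd31+ cells (log2 2.84, SE 0.95, edgeR adjusted p = 0.175), as were Irf9 (1.78) and Irf1 (0.97), while Irf2, a repressor, was called lower (-0.33). In Cd146+ cells Nlrc5 (3.41) and Irf9 (2.00) were called higher. H2-K1, a class I heavy chain, had 21.4, 30.1 and 49.8 CPM in Cd31+ controls and 110, 124 and 307 CPM after silencing, with no overlap. Of the 7 class I genes, 5 and 4 were called higher (medians 0.90 and 1.17). With the number 3 libraries left out, Nlrc5 (1.81), Irf9 (1.46) and 3 of the 7 class I genes (H2-K1, H2-D1 and Tap2) were called higher in Cd146+ cells, with a class I median of 0.61. Some of these genes also differed between the control constructs. Empty vector was called higher than nc shRNA for Irf9 (0.59), H2-D1 (0.76) and Tap2 (0.79) in Cd146+ cells, beside 3.99% of all genes. In Cd31+ cells it was for Irf1 (0.60), beside 3.16%. Nlrc5 (0.75 in Cd31+ and 1.31 in Cd146+ cells) and H2-K1 (0.39 and 0.60) were called in neither.

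Of 19 cofactors outside the symbol rule, 18 were tested. In Cd31+ cells Ube3c, a ubiquitin ligase bound to the proteasome (0.68), Adrm1, a ubiquitin receptor (0.45), and Pomp, the maturation factor of the barrel (0.38), were called higher. Ube3c alone passed after adjustment (edgeR adjusted p = 0.0407). It was also called higher with empty vector than with nc shRNA in Cd31+ cells (0.46), beside 3.16% of all genes. Nfe2l2, a factor that binds antioxidant response elements, was called lower (-0.39). Nfe2l1, from the same list, was higher in every same-numbered Cd31+ pair (0.77, 0.22 and 0.21), beside 27.3% of all genes. So were Pomp, Adrm1, Uchl5, Ubb, Vcp, Ube3c, Rad23b and Ubqln1, so this was not particular to Nfe2l1. Nfe2l1 was also higher in both Cd146+ pairs (0.51 and 0.11), as were these genes except Rad23b, beside 34.6% of all genes. In Cd146+ cells Usp14, Pomp and Ube3c were called higher and 0 lower, and without the number 3 libraries 0 of the 18 were called (Usp14 0.30, Pomp 0.55, Ube3c 0.35). The medians of the 18 were 0.13 and 0.20, beside 0.28 and 0.44 for the other members by the symbol rule.

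The inducible members had a higher median spread than the others among libraries of a group. Their within-group SD on the log2 scale had a median of 0.453 (0.207 to 1.09), beside 0.147 (0.0581 to 0.291) for the 41 others. Over all 24 libraries the highest level was 4.37 to 90.3 times the lowest for the inducible members and 1.34 to 3.71 times for the others.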

How the data were processed

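Counts of reads per gene were deposited by the authors for 24 libraries (8 groups of 3). The submitters' processing notes name fastp and mm9; the aligner and counter are not given in the sources used here, and neither is strand, so antisense overlap cannot be told apart. Gene coordinates of the table matched the GRCm38 annotation for 0 of 48 members and are not printed. Deposited FPKM values and the authors' own comparisons were not used. The gene length deposited by the authors was within 10% of the exon union for 48 of 48 members and gave RPKM.

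Members and gene lists were chosen with earlier results of these data known. Named genes are the inducible members, their counterparts, the members with the smallest p in each comparison, those called in the opposite direction and those under 1 CPM. Other members were named after their values were seen. Counts were filtered (filterByExpr), TMM-scaled and fitted per comparison (6 libraries) by the two-sided quasi-likelihood test of edgeR 4.0.16 with robust dispersion in R 4.3.3. Interactions used all 24 libraries. Ratios (pseudocount 0.5 reads) used exact permutation tests with scipy 1.17.1. Scripts were tested on simulated data. Alternatives were DESeq2 1.42.0, its size factors, other filters, joint fits, a replicate block and left-out libraries. Same-numbered libraries deviated together (median r of deviations from group means 0.516 over 13 Cd31+ pairs and 0.696 over 10 Cd146+ pairs, lowest 0.343 and 0.373, against -0.161 and -0.0677 for different numbers), so the numbers were taken to pair libraries; what a number stands for is not stated. A member of the interferon regulator list is not reported here, and so neither is a count over that list.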

Additional observations from a re-analysis of the deposited data

Results flagged for a closer look

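The effect of P16 silencing on Psma1 differed between the populations by 0.3979 on the log2 scale (larger in Cd146+ cells), which passed an unadjusted p of 0.05 in a test of the difference itself over 24 libraries. The edgeR adjusted p was 1.0, and with the replicate block the difference was 0.29 (adjusted p = 0.986). In Cd146+ cells that block leaves P16 shRNA libraries 3 and 5 to carry the silencing effect. Groups of 3 libraries were too small to test for a library that stands apart.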

How the results depend on the processing

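When single libraries were left out, the inducible median ranged over 0.74 to 1.69 for silencing in Cd31+ cells, 1.19 to 1.75 for silencing in Cd146+ cells, 0.13 to 0.45 for overexpression in Cd31+ cells and -0.36 to 0.20 for overexpression in Cd146+ cells. The median of the other members ranged over 0.25 to 0.32, 0.37 to 0.54, 0.067 to 0.23 and -0.025 to 0.093, and the number of members called over 14 to 26, 11 to 25, 0 to 2 and 0 to 0. The settings added after seeing the data left P16 shRNA libraries out of the 12-library replicate block and the number 3 libraries out of the silencing test in Cd146+ cells. They gave 20 to 29 called members in Cd31+ cells and 8 to 38 in Cd146+ cells, inducible medians of 1.07 to 1.62 and 0.78 to 1.90, and medians of the others of 0.22 to 0.32 and 0.26 to 0.43.

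For overexpression in Cd31+ cells, where 1 member was called, the replicate block over 12 libraries called 5, the filter on a mean of 10 counts 2, the joint fit 3, and the replicate block with 2 groups and DESeq2 0. The 12-library block moved the inducible median for overexpression to 0.045 in Cd31+ and -0.42 in Cd146+ cells. In that Cd146+ fit, empty vector library 5 alone carries the control group. The other settings kept the counts for silencing within 1.5 times (23 to 32 in Cd31+ and 19 to 36 in Cd146+ cells). Shares of all genes are not given beside the counts in this section, so they show only how the calls moved with the setting.

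Among the 4 comparisons with a control construct, direction was reversed for named members in overexpression. Without the number 3 libraries, the population difference in the silencing effect also turned for Psmb8 (0.32 to -1.14) and Psmb9 (1.04 to -0.51), and Psme1 turned between control constructs in Cd146+ cells (-0.12 to 0.088). In Cd31+ cells the 12-library block gave Psmb8 -0.82, Psmb9 -0.39 and Psme3 0.013, and the 2-group block Psmb8 -0.41. With libraries left out there, Psmb8 ranged from -0.36 to 0.60, being negative without empty vector library 1 (-0.22) or 2 (-0.17) and P16 library 3 (-0.071) or 5, and Psmb9 from -0.074 (without empty vector library 1) to 0.39. In Cd146+ cells the 12-library block, with empty vector library 5 alone as the control, gave Psmb10 -0.11, Psme1 -0.15, Psme2 -0.42 and Psme3 -0.11. There the left-out ranges were -0.097 to 0.42 for Psme1, -0.36 to 0.37 for Psme2, -0.054 to 0.24 for Psmb6 and -0.044 to 0.047 for Psme3, each negative without P16 library 3. The causes were not tested. The 2-group block could not be fitted for overexpression in Cd146+ cells, which share number 5 alone, and a block without the number 3 libraries was not run, since pair 5 alone would carry it. Few reads limit Psmb8 and Psmb9 in controls, and 3 libraries per group limit every test.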
